A study of Caenorhabditis elegans with 4 samples.

Results

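The genes described are ftt-2 and par-5, which encode the 14-3-3 proteins of Caenorhabditis elegans, and they are 2 of the 19973 protein-coding genes on its nuclear chromosomes. They were chosen by name with earlier results of these peak lists known, and the peaks taken are those that share at least 1 bp with the gene body plus 3000 bp to each side. The signal values of these peaks therefore describe the genes and are not tested. ChIP-seq, in which the DNA crosslinked to a protein is pulled down and sequenced, was done on whole L3 larvae of mixed sex from strain OP193. This strain has the unc-119(ed3) allele and an integrated transgene, wgIs193, that carries sea-2 with a C-terminal TY1, EGFP and FLAG tag together with unc-119. SEA-2 is a zinc finger protein. The labels list no change at the endogenous sea-2 gene, and no untagged group is among the samples. There are 4 biological replicates of 1 group. Replicates 1 and 2 have a stated fragment size range and the CGC as worm source, and replicates 3 and 4 have sonication and the laboratory as worm source.

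14-3-3 proteins are small adaptors that act as dimers and hold client proteins at phosphorylated serines or threonines, which changes where the client sits in the cell or what it can bind. PAR-5 is known from the early embryo, where it helps to keep the anterior and posterior PAR proteins in separate cortical domains. FTT-2 and PAR-5 both bind the FOXO factor DAF-16 and the deacetylase SIR-2.1, and FTT-2 helps to hold DAF-16 in the cytoplasm when insulin signalling is active. The coding sequences of transcripts a of both genes are 744 bases long and were identical at 80.5% of 738 ungapped aligned bases, with no identical run above 19 bases.

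ftt-2 (WBGene00001502) lies on the minus strand of X from 11603708 to 11605419 on ce11, and par-5 (WBGene00003920) on the minus strand of IV from 11820506 to 11821924. SEA-2 peaks of the final list lay upstream of both genes. ftt-2 had 2 overlapping final peaks with summits 603 and 803 bp upstream of its annotated start, called the inner and the outer peak here. par-5 had 1 final peak with its summit 128 bp upstream. Of all protein-coding genes, 2.9% had a final peak in such a region and 0.155% had 2 or more. The pooled list had 4 peaks in the ftt-2 region and 1 in the par-5 region, and 28.3% of protein-coding genes had at least 1. The file records describe the pooled list as peaks and background. These shares are background only, since the genes were chosen from these lists.

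Sequences at the 3 final peaks are shown because base composition around the pooled summits differed between them. All are on the minus strand of ce11, the strand of both genes, from RefSeq's WBcel235 assembly. The inner window runs from 50 bp below the lowest to 50 bp above the highest summit of the 4 replicates (chrX:11605929-11606149), the outer window lies within 50 bp of the pooled summit (chrX:11606172-11606272), and the par-5 window is the whole interval between the annotated starts of par-5 and the divergent gene M117.3 (chrIV:11821925-11822205). Capitals mark the longest word that all 3 windows hold on either strand, a match of 7 bases found after the sequences were seen. The inner window is wider than the inner final peak, and the word in it, at 11605982 to 11605988, lies outside that peak and outside the peak of replicate 1. It lies inside the peaks of replicates 2, 3 and 4.
ftt-2 inner site: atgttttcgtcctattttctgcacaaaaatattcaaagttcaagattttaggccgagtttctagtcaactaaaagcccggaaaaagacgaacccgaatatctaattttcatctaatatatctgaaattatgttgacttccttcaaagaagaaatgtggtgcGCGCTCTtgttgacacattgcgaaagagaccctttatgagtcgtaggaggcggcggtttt
ftt-2 outer site: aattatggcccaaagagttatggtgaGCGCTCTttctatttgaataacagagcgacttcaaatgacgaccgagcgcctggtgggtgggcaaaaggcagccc
par-5 to M117.3: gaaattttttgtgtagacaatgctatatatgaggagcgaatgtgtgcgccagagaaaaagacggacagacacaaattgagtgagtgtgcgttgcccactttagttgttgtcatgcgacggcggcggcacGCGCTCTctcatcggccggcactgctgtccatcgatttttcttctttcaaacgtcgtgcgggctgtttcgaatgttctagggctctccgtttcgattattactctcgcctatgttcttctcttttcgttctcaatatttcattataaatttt

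The inner ftt-2 peak was among the strongest peaks of every replicate. In the pooled list it ran from 11605993 to 11606105 on X with its summit at 11606022, ranked 3 of 3912 peaks and had a signal value of 198, which is the authors' peak caller value on an unstated scale. When the replicate peak with the nearest summit within 150 bp was taken, it ranked 2, 3, 3 and 1 in replicates 1 to 4, by signal values of 95.8, 47.8, 62.4 and 51.3. As a share of the strongest peak of the same list these were 89.8%, 55.7%, 81.1% and 100%, a mean of 81.7% ± 18.95 (SD, n = 4). All 4 replicates thus placed it in their first 3 peaks. Only 2 of the 312 final peaks had a rank of 3 or better in every replicate, and the other was the peak on V from 1151355 to 1151694.

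In replicate 2 the peaks upstream of ftt-2 can be told apart by summit and not by overlap. Its strong peak ran from 11605906 to 11605991 and ended just short of the pooled peak, which starts at 11605993. A search for any shared base in replicate 2 therefore passes over the peak of rank 3 and returns the one at 11606042 to 11606337, which ranked 4400. The summits of these candidates lay 43 bp below and 168 bp above the pooled summit. With summits at most 50 bp apart, replicate 1 has no match, because its summit lay 77 bp away.

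**Figure D1:**
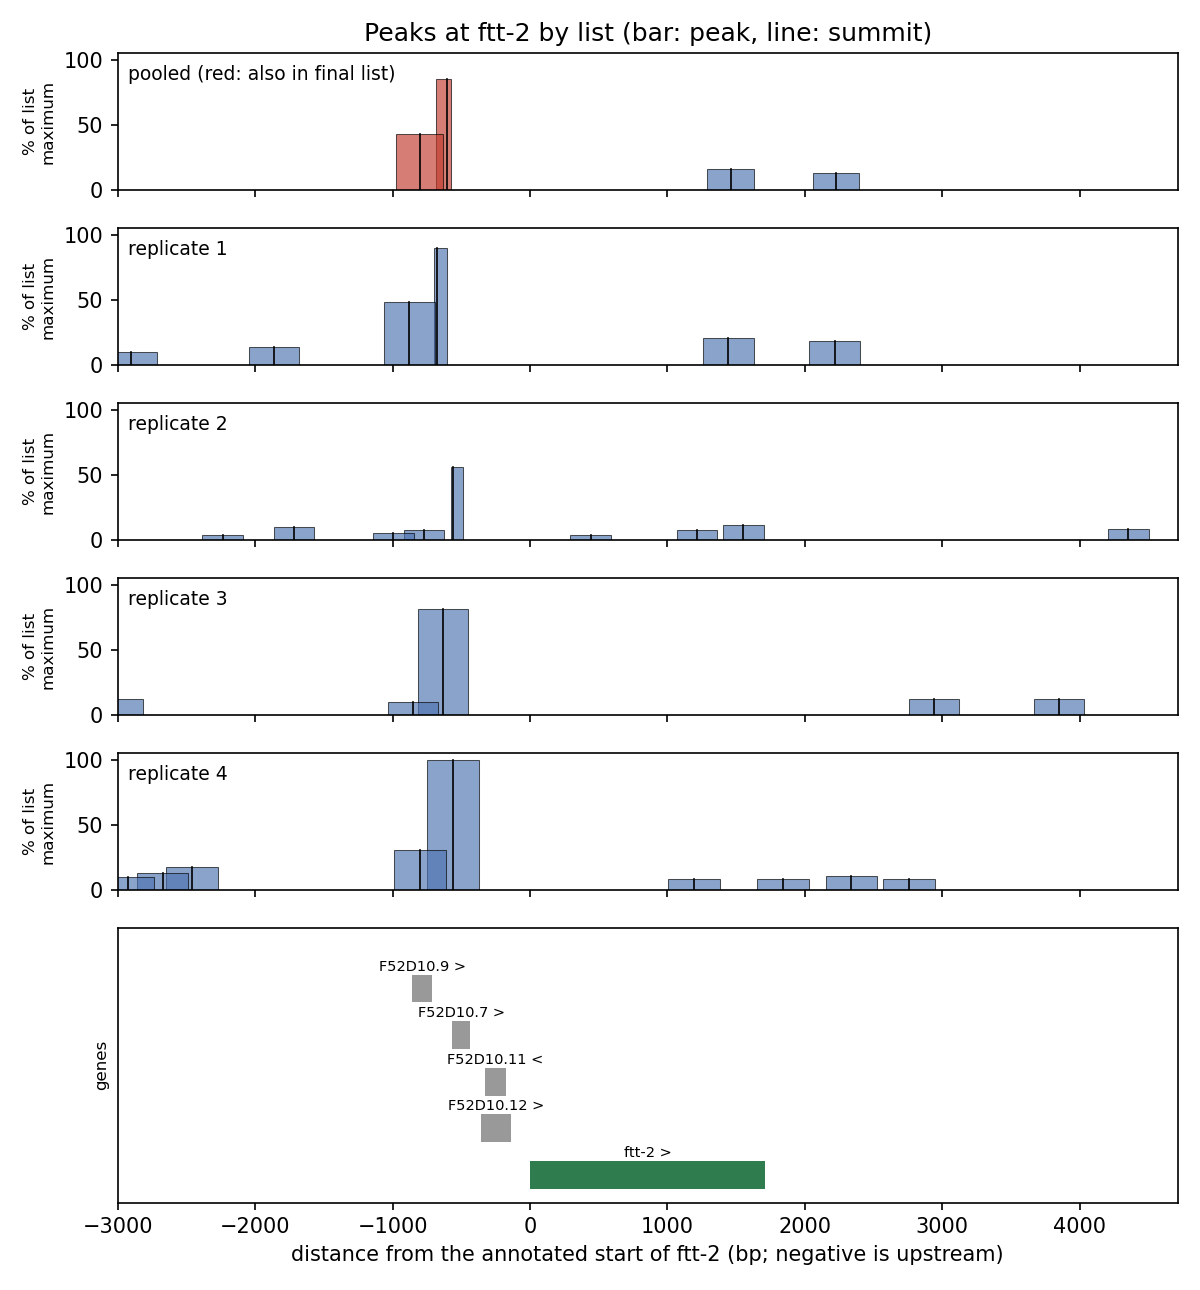
Peaks within 3000 bp of ftt-2 in the pooled list and the 4 replicates, by distance from the annotated start (bp), with height as signal value in percent of the strongest peak of the same list. Lines mark summits, red marks pooled peaks that are also final peaks, green and grey bars mark protein-coding and ncRNA genes, and arrowheads point in the direction of transcription. In each replicate the highest peak lies 560 to 680 bp upstream of the start.

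The outer ftt-2 peak was not steady between replicates. In the pooled list it ran from 11606052 to 11606391 with its summit at 11606222, ranked 49 and had a signal value of 101. The matched peaks ranked 20, 4400, 10926 and 192 in replicates 1 to 4, with signal values of 51.6, 6.84, 7.71 and 15.7. It was high in replicates 1 and 4, where it was among the 312 strongest peaks. It was low in replicates 2 and 3, each with 30000 peaks. Against the inner peak of the same list, its signal value was 53.9%, 14.3%, 12.4% and 30.6% in replicates 1 to 4 and 51.2% in the pooled list. Taken by any shared base instead, it would be given ranks 2, 3 and 1 in replicates 1, 3 and 4, which are the ranks of the inner peak.

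The spacing of the pair was close to the smallest that the lists contain. The summits were 200, 211, 220 and 239 bp apart in replicates 1 to 4 and 200 bp apart in the pooled list. No pair of neighbouring summits lay closer than 199 bp in any replicate or closer than 200 bp in the pooled list. Of all neighbouring summits, 0.519%, 1.27%, 3.15% and 4.89% were as close as the ftt-2 pair or closer in replicates 1 to 4, and 0.102% in the pooled list. The 2 peaks of the pair are the only final peaks that overlap another final peak.

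The inner peak also differed in shape from the usual call. Peaks had a fixed usual width in each list, 340 bp in the pooled list and 370, 296, 364 and 376 bp in replicates 1 to 4. The inner peak was 113 bp wide in the pooled list, 96 bp in replicate 1 and 86 bp in replicate 2, and had the usual width in replicates 3 and 4. The pooled list holds 2 peaks of unusual width, and the other is the final peak next to F44E5.4 on II from 11759305 to 11759573. The summits of the inner peak lay at 11606099, 11605979, 11606053 and 11605981 in replicates 1 to 4, a range of 120 bp. Over the 257 final peaks matched in all 4 replicates, the median range was 72 bp and 21.01% had a range of at least 120 bp. Replicates 2 and 4 placed the summit within 2 bp of each other, and replicate 1 placed it farthest upstream.

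**Figure D2:**
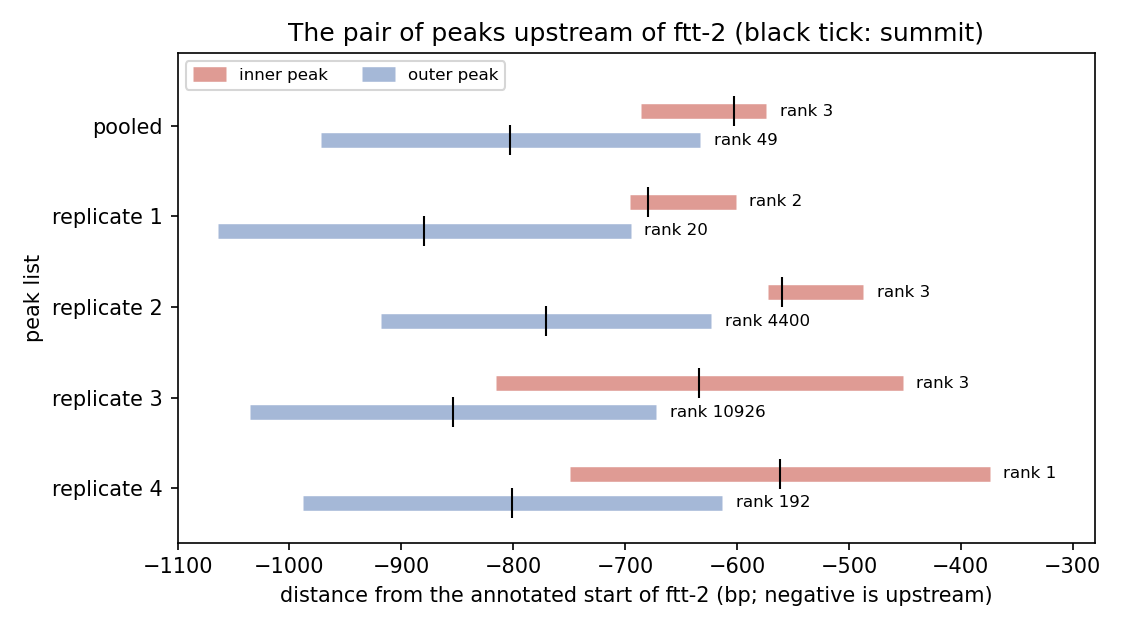
The inner (red) and outer (blue) peak upstream of ftt-2 in the pooled list and each replicate, by distance from the annotated start (bp), with ticks at the summits and the rank of each peak by signal value beside it. The inner peak is narrow in the pooled list and replicates 1 and 2, and in replicate 2 the peaks do not overlap and are 50 bp apart.

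The annotated start nearest to the inner summit belongs to an RNA gene. The pooled summit lay 33 bp upstream of the start of the ncRNA gene F52D10.7 (X, 11605853 to 11605989, minus strand), and the outer summit lay inside the ncRNA gene F52D10.9 (X, 11606129 to 11606277, minus strand), 55 bp from its start. The ncRNA genes F52D10.11 and F52D10.12 lie between these and ftt-2. Among protein-coding genes ftt-2 was by far the nearest: the next start upstream, of F52D10.4, is 11448 bp from the inner summit. Peak lists do not tell to which of these genes a peak belongs.

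Weaker peaks lay at the other end of ftt-2. A pooled peak at 11603788 to 11604127 (rank 1228, signal value 38.8) had its summit in the 3' UTR. It was matched in replicate 1 (rank 889) and replicate 2 (rank 865) and not in replicates 3 and 4. Its −log10 q was only 0.296 in the pooled list, 0.725 in replicate 1 and 2.28 in replicate 2. A pooled peak downstream of the gene at 11603022 to 11603361 (rank 3160, signal value 31.6) was matched in replicates 1 and 4, at ranks 1751 and 19198. Its −log10 q was only 0.043 in the pooled list, 0.421 in replicate 1 and 0.109 in replicate 4. The nearest pooled peak outside the region limit of 3000 bp lay 3394 bp from the gene at 11599975 to 11600314 (rank 1438). The replicates held 6, 9, 5 and 9 peaks in the region, where the median protein-coding gene had 2 in replicate 1 and 3 in each other replicate. Of these 29 peaks 21 were neither the inner nor the outer one. They ranked from 865 to 29283, and 9 lay upstream, 5 in the gene and 7 downstream. The file records describe the replicate and pooled lists as peaks and background. The lists do not label which entries are which, but give a −log10 q for each. In the pooled list it was 2.56 at both the inner and the outer peak.

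At par-5 the final peak lay between divergent genes. It ran from 11821882 to 11822221 on IV with its summit at 11822052, ranked 68 of 3912 pooled peaks and had a signal value of 93.04, well inside the final list, whose lowest signal value was 57.9. The summit was 128 bp upstream of par-5 and 154 bp upstream of M117.3, a protein-coding gene on the plus strand (11822206 to 11823989). The ncRNA genes M117.11 and M117.12 overlap each other at the same place, on opposite strands, and the start of M117.11 was nearest to the summit, at 60 bp. The peak can therefore not be given to par-5 alone.

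The par-5 peak was present in every replicate and varied more in rank than the inner ftt-2 peak. It ranked 514, 33, 152 and 64 in replicates 1 to 4, with signal values of 25.4, 23.9, 21.3 and 19.95. These were 23.8%, 27.9%, 27.7% and 38.9% of the strongest peak in each list, a mean of 29.6% ± 6.48 (SD, n = 4). This share thus varied less than that of the inner ftt-2 peak, whose SD was 18.95. Replicate 1 was the low one by rank and by share, though its signal value was the highest. In replicate 1 the peak fell outside the 312 strongest. In the other 3 replicates it was inside. The median rank was 108, and it was 64 without replicate 1 or replicate 3 and 253 with peaks ranked by −log10 q. One of the 312 strongest peaks lay in the region of 2.93%, 2.75%, 2.88% and 2.85% of protein-coding genes in replicates 1 to 4.

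**Figure D3:**
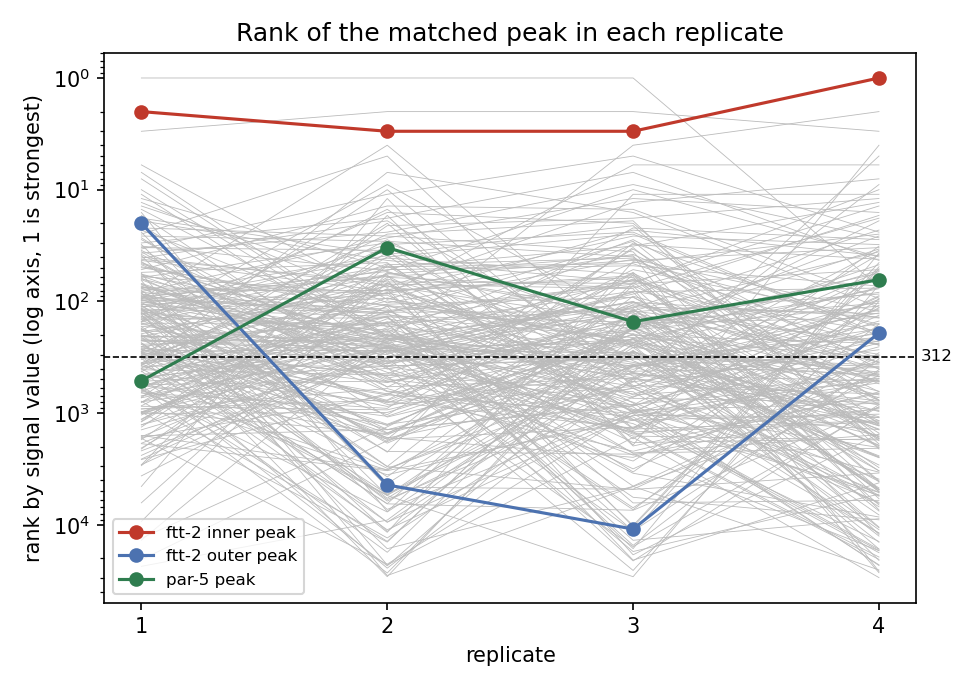
Rank by signal value of the matched peak in each replicate (log axis, 1 is the strongest), for the inner and outer ftt-2 peaks, the par-5 peak and, in grey, the 257 final peaks matched in all 4 replicates, with lines joining the same peak. The dashed line marks rank 312. The inner ftt-2 peak stays at ranks 1 to 3, while the outer peak runs from 20 to 10926.

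The par-5 summits were closest in replicates 2 and 3, which differed by 1 bp. They lay at 11822023, 11822053, 11822054 and 11822131 in replicates 1 to 4, a range of 108 bp, and 29.2% of the matched final peaks had a range of at least 108 bp. The summit of replicate 4 was 79 bp above the pooled summit, on the side of M117.3, and that of replicate 1 was 29 bp below it. No other pooled peak lay in the region, and the nearest outside lay 35225 bp from par-5. The replicates held 3, 7, 3 and 5 peaks in the region, of which 14 were not the main peak. These ranked from 5056 to 26315.

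**Figure D4:**
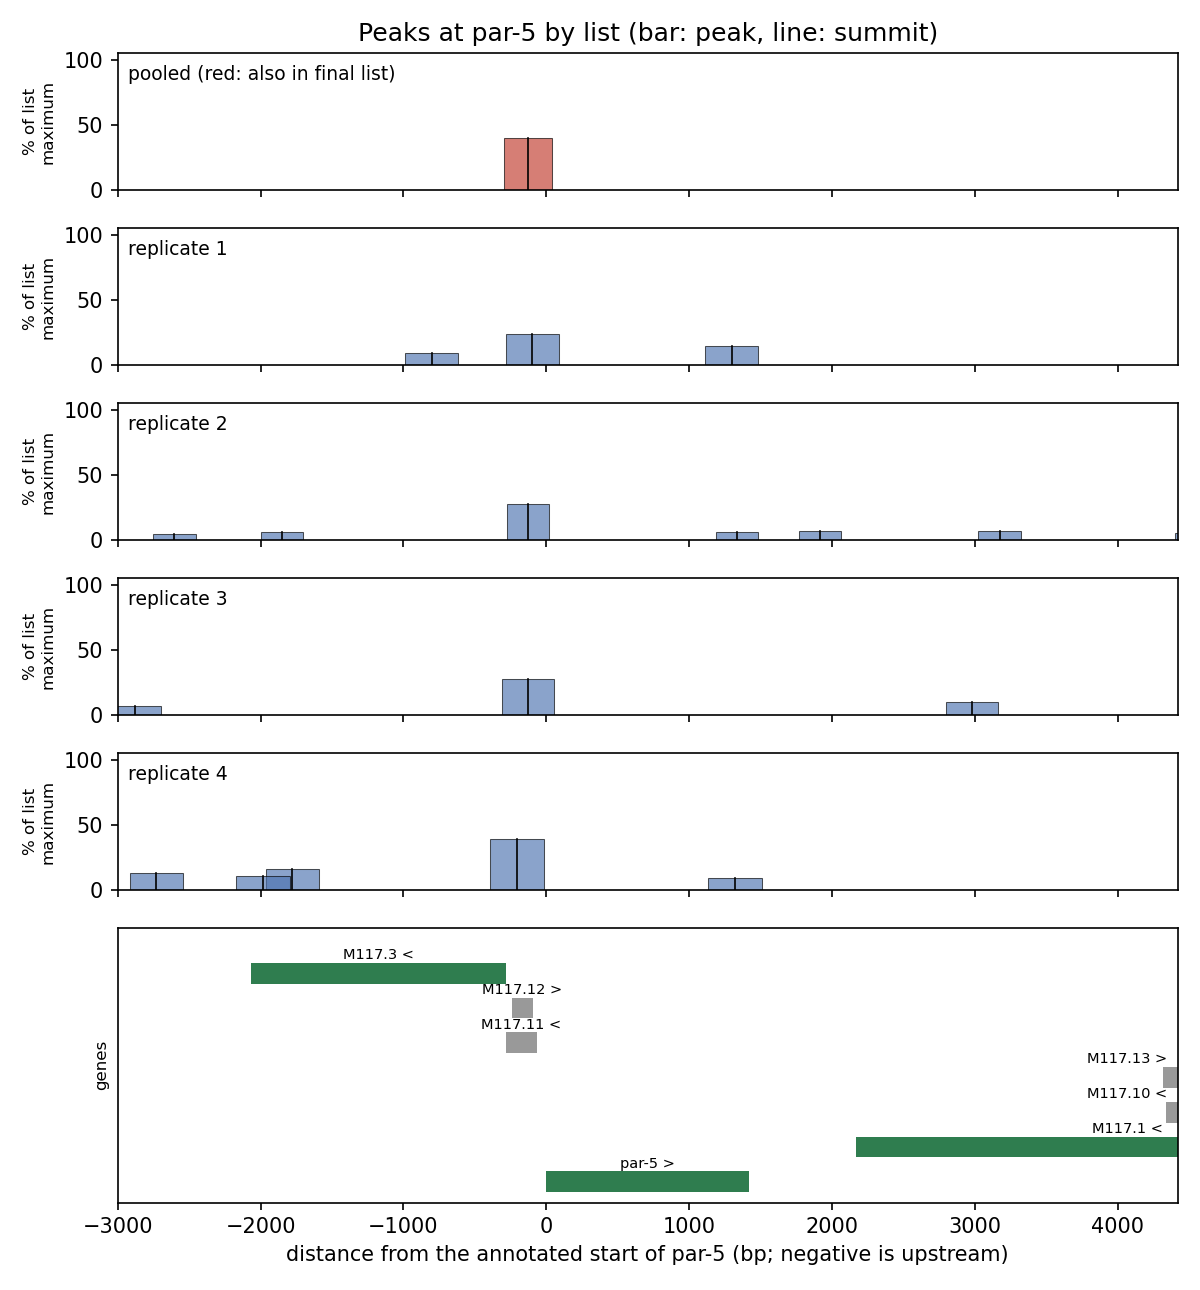
Peaks within 3000 bp of par-5 in the pooled list and the 4 replicates, by distance from the annotated start (bp), with height as signal value in percent of the strongest peak of the same list. Colours and marks are as in the map of ftt-2. The highest peak of each replicate lies 99 to 207 bp upstream of par-5, between par-5 and M117.3.

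Base composition was compared in windows of equal length around the summits, which are not the printed windows. GC content within 50 bp of the pooled summit was 36.6% at the inner ftt-2 peak, 50.5% at the outer peak and 56.4% at the par-5 peak, where the median of the 312 final peaks was 50.5% with quartiles of 45.5% and 54.5%. The inner ftt-2 peak was below the lower quartile and the par-5 peak above the upper one. The printed windows, which differ in length, had a GC content of 38.5% (inner), 50.5% (outer) and 45.2% (par-5), so over the whole interval between par-5 and M117.3 it was lower than in the outer window. Against the windows centred 250 bp to each side, the difference was 1.98 percentage points at the inner peak, -2.97 at the outer and 10.9 at par-5, with a median of 12.9 over the final peaks. The windows of the ftt-2 pair lie close together, so the flank of one takes in sequence of the other. At the summits of replicates 1 to 4 the inner peak had a GC content of 36.6%, 45.5%, 34.7% and 45.5%. The outer peak had 33.7%, 52.5%, 32.7% and 52.5%, which was below the inner peak in replicates 1 and 3 and above it in replicates 2 and 4. The par-5 peak had 49.5%, 57.4%, 56.4% and 50.5%. The value at the inner peak thus depends on where in the 120 bp a replicate placed the summit. The order of the inner and outer peak depends on the summit placement too.

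**Figure D5:**
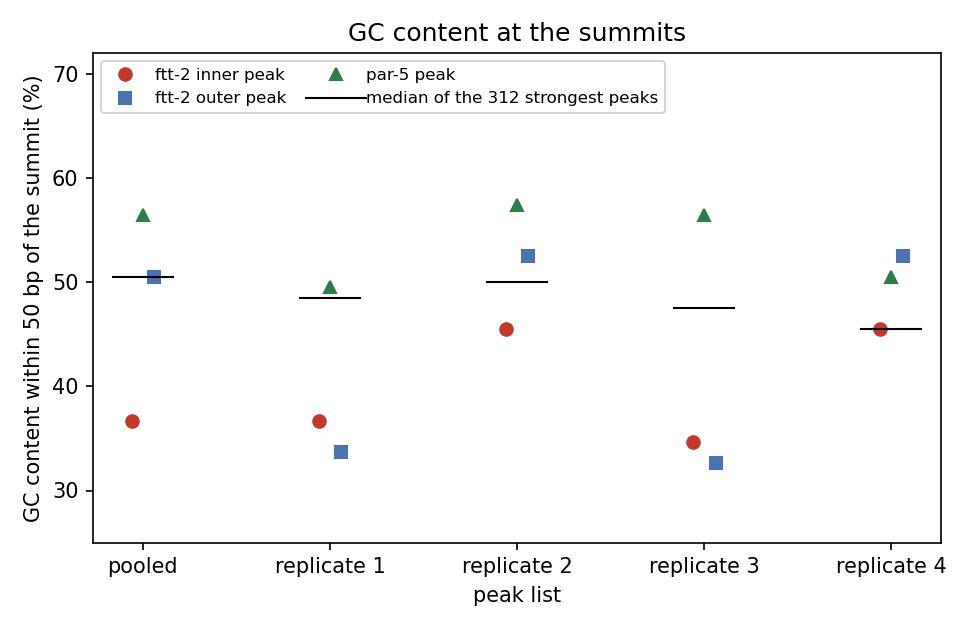
GC content within 50 bp of the summit (%) of the inner and outer ftt-2 peaks and the par-5 peak, in the pooled list and each replicate, with black bars at the median of the 312 strongest peaks of the list. The inner ftt-2 peak lies at or below the bar in every list, and the par-5 peak lies above it in every list.

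The letters GAGAGA were searched on both strands (TCTCTC on the other). They occur within 50 bp of 40.7% of final and 18.3% of pooled summits and in 21.7% of the 300-base promoter windows of RefSeq protein-coding genes. Over whole peaks they occur in 67.9% of final and 38.8% of pooled peaks. Neither ftt-2 peak holds them, and the par-5 peak holds 1 match, within 50 bp of its summit, which overlaps the word in capitals. The inner ftt-2 peak is 113 bp wide against the usual 340 bp, so the whole-peak shares are not on like terms with it. At par-5 the match lay within 50 bp of the summits of replicates 1, 2 and 3 and not of replicate 4. The word in capitals, GCGCTCT or AGAGCGC on the other strand, lies within 50 bp of 22 of the 312 final summits (7.05%) and 83 of the 3912 pooled summits (2.12%), and in 2.05% of the promoter windows. The 3 sites that gave the word are among these summits, and the promoter windows are longer than the summit windows. The word lay in 1.12% of the windows 250 bp to each side of the final summits. At the inner site it was centred 37 bp from the pooled summit and 114, 6, 68 and 4 bp from the summits of replicates 1 to 4. At the outer site (11606240 to 11606246) it was centred 21 bp from the pooled summit and 56, 53, 30 and 23 bp from those of the replicates. At par-5 (11822070 to 11822076) it was centred 21 bp from the pooled summit and 50, 20, 19 and 58 bp from those of the replicates. A match of letters is a description and does not show a binding site. The final peaks at ftt-2 and par-5 had no second copy of 50 bp or more at 90% identity in the genome.

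The peaks whose ranks over the 4 replicates were most like those of the inner ftt-2 peak, by distance in log10 rank, began with the peak on V from 1151355 to 1151694 (ranks 3, 2, 2 and 3, distance 0.566), whose nearest protein-coding start is that of the calmodulin gene cmd-1, 4746 bp away. Next came peaks nearest to the starts of pbrm-1 (833 bp away), F13D11.3 (6276 bp), lin-42 (2993 bp) and F44E5.4 (132 bp), at rank distances of 1.95 to 2.01. For the par-5 peak the nearest in rank are also named by the nearest protein-coding start. The first was that of lmp-1, which encodes a lysosomal membrane protein (ranks 1198, 63, 250 and 47, distance 0.528), 940 bp away. Next came gpb-1, which encodes a G protein beta subunit (0.601), 3206 bp away, then F08G2.5 (915 bp) and chd-7 (2763 bp). The last was the polyubiquitin gene ubq-1 (0.766), 340 bp away. Of the pooled peaks, 773 were matched in all 4 replicates and could be compared.

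Genes of pathways in which 14-3-3 proteins act, listed from textbook knowledge, were looked up in the same lists. Of 40 such genes from insulin signalling, PAR polarity and Ras, cell cycle and Hippo signalling, 1 (2.5%) had a final summit in a promoter window (1000 bp before any annotated transcript start and 200 bp after it), where 1.11% of all protein-coding genes did. It was akt-2, a kinase that phosphorylates DAF-16, with a peak at X, 14146703 to 14147042, 827 bp upstream of its start (rank 241, signal value 63.9), which ranked 288, 185 and 319 in replicates 1, 2 and 4 and was not matched in replicate 3. The ERK kinase gene mpk-1 had a final peak inside the gene (III, 4223634 to 4223973, rank 191, signal value 69.1), which ranked 650, 62 and 358 in replicates 1, 2 and 3 and was not matched in replicate 4. With the gene body plus 3000 bp, akt-2 and mpk-1 made 2 of the 40 genes (5%) with a final peak, where 2.9% of all protein-coding genes had one. A pooled peak lay in the region of 20 of the 40 genes (50%), where 28.3% of all protein-coding genes had one. By group these were 5 of 14 insulin genes, 5 of 11 polarity genes and 10 of 15 genes of the other pathways. A longer gene has a longer region and so more room for a peak. Gene length was not matched in the shares by region, which are a description only. The strongest pooled peaks outside the final list were at kin-29 (rank 320), hda-4 (325), let-60 (397) and daf-2 (482), and the best at daf-16 ranked 790. Pooled summits lay in the promoter window of 7 of the 40 genes (17.5%), where 9.25% of all protein-coding genes had one. A gene with more annotated transcript starts has more such windows. The number of starts was not matched in the shares by promoter window, which are a description only. By group, a final summit lay in the promoter window of 1 of 14 insulin genes, 0 of 11 polarity genes and 0 of 15 genes of the other pathways.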

How the data were processed

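The data are peak lists that the authors deposited for 4 ChIP-seq replicates. Per the deposited file records, each replicate list derives from that replicate's alignment and 1 shared control file, the pooled list from all 4 alignments and that control, and the final list was derived from the pooled and replicate lists by thresholding on the irreproducible discovery rate. Depth is unknown, and the peak caller, aligner and threshold were not named by the sources. The authors' lists give a signal value, the −log10 of a q-value and a summit per peak. Signal values were used to rank and describe peaks within a list. On ce11, 6 lists were used, holding 23684 peaks for replicate 1, 30000 for each other replicate, 3912 pooled and 312 final. Another 6 lists, on ce10, were not used here.

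Genes came from Ensembl release 115 (WBcel235, the build ce11) and sequence from RefSeq's WBcel235. A pooled peak was matched to the replicate peak with the nearest summit within 150 bp. Second copies were searched with blastn 2.17.0, coding sequences aligned with Biopython 1.88, and the matching was checked on simulated lists. The design has 1 group, so no comparison between groups was tested. Dixon's gap-over-range criterion was applied to 16 values over the 4 replicates. The members, the list of 40 genes and the letters GAGAGA were chosen with earlier results of these data known. Named genes are the members, their neighbours, list genes with a final peak and the 5 peaks nearest in log10 rank to each leading peak. Further list genes and the shared word were chosen later, with values in view. The alternatives varied the region limit, the overlap, the matching, the ranking, the number of strongest peaks and each replicate left out.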

Additional observations from a re-analysis of the deposited data

Results flagged for a closer look

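Of 16 values examined over the 4 replicates, 2 had a replicate far from the others, where chance flags about 1 in 20. Both are the peak width in replicate 2, which was 296 bp for the outer ftt-2 peak and 296 bp for the par-5 peak, against 364 to 376 bp in the other replicates. This is the usual width in that list as a whole, where 2 of 30000 peaks had another width. The inner ftt-2 peak, at 86 bp, is 1 of these 2. No rank, summit position or share of the list maximum was flagged.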

How the results depend on the processing

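By the limits given below, the result that moved with the setting was the number of the 40 genes with a final summit in the promoter window, which was 1. It was 0 with a window of 500 bp upstream to 100 bp downstream and 0 in the stronger 50% of the final list. It was 2 with the gene body plus 3000 bp and 7 with pooled summits. The other 46 of 50 alternatives left the counts within 1.5 times and the median ranks within 1 SD of the 4 replicate ranks. These limits are wide. The SD was 221 for the par-5 peak, so its median rank of 253 by −log10 q, against 108, counted as unmoved. A count of 2 against 3 also counted as unmoved. When each replicate was left out in turn, the median rank ran from 2 to 3 for the inner ftt-2 peak and from 64 to 152 for the par-5 peak. The number of replicates with the par-5 peak among the 312 strongest was 3, and it was 4 with the 1000 strongest and 2 with the 100 strongest or with summits at most 50 bp apart. For the inner ftt-2 peak it was 4, and 3 with any shared base or with summits at most 50 bp apart. No paired analysis was possible because there is 1 group. Without read counts, no interval could be given for a peak's signal value, and 4 replicates limit each SD.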
